A study of Rattus norvegicus with 6 samples.

Results

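The genes described here encode the nuclear pore and the receptors that carry cargo through it. They were taken from the deposited count table by name: nucleoporins (Nup followed by a digit), importin alpha genes (Kpna), Kpnb1, importins (Ipo), exportins (Xpo), transportins (Tnpo), Ran, the numbered Ran-binding protein genes (Ranbp), Cse1l and Nxf1. This gave 55 of 32883 rows, with 54 gene names, because Nup214 names 2 rows. The pattern uses names alone. The RNA came from GH4C1, a pituitary cell line of the rat with the properties of cells that make growth hormone and prolactin, labelled wild type. All 6 libraries were made from cells crosslinked with psoralen, which joins base-paired strands, followed by a pull-down aimed at the long noncoding RNA Neat1, the scaffold of the nuclear bodies called paraspeckles. The pull-down used Oligo Pool A in 3 libraries and Oligo Pool B in 3 others. The labels leave unstated what either pool of oligonucleotides binds or whether one is a control. They also do not say whether the libraries came from separate cultures, so p-values measure the spread between these libraries, which may be technical. Input RNA and cells without psoralen were not analysed here, so more RNA of a gene in the cells and better recovery of it cannot be told apart.

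Nuclear pores are large assemblies of nucleoporins set in the nuclear envelope. An outer ring built of Y-shaped complexes and an inner ring form the scaffold, and nucleoporins with phenylalanine-glycine repeats fill the channel and make its barrier. Karyopherins bind cargo and cross that barrier, and the small GTPase Ran sets the direction: importins release cargo where Ran is bound to GTP, in the nucleus, and exportins bind cargo there. Most messenger RNA leaves by another receptor, Nxf1.

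Total counts per library were between 1826390 and 3685899, and 3 counts, the most that a count of 0 allows, were between 0.814 and 1.64 CPM (counts per total library count, all libraries scaled to the same total). The markers of the labelled lineage were present in every library. Prl was between 680 and 759 CPM with pool A and between 386 and 498 CPM with pool B. Pou1f1 was between 139 and 167.21 CPM with pool A and between 167.22 and 227 CPM with pool B. Gh1 was between 149 and 187 CPM, with overlapping pools. Fshb and Tshb, which mark other pituitary cells, were at 0 counts throughout, Pomc was at most 3.45 CPM, and Lhb was between 9.1 and 16.0 CPM with pool A and between 40.0 and 45.0 CPM with pool B. Albumin and both insulin genes were at 0, while Myh6 was between 7.12 and 11.3 CPM with pool A and between 2.19 and 6.05 CPM with pool B. Ptprc was between 0.395 and 5.65 CPM with pool A and at 0 in each pool B library. The part of these markers in the results was not tested.

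Whether the transcripts of these genes were recovered differently by the pools was tested gene by gene, with edgeR's quasi-likelihood test fitted on the whole table. Of the 55 rows, 52 passed the expression filter and 22 of those differed at an adjusted p under 0.05, a share of 42.3%. The share over all 11582 genes tested was 40.6%, so the count is near the background. Of the 22, 8 were higher with pool A (15.4% of those tested, against 18.6% of all genes) and 14 were higher with pool B (26.9%, against 22.0% of all genes). CPM ranges of the pools did not overlap for 27 of the 52 genes, or 51.9%, against 49.1% of all genes. Pool B lay above pool A for 20 of the 27 and below it for 7, and this split was not taken over all genes. The ranges are on the scale of total counts, which leans towards pool B compared with the TMM factors used for the calls. The median absolute log2 fold change was 0.55, near the 0.6 over all genes tested. A difference of more than 2-fold past the threshold was found for 9 of the 52 (17.3%, against 25.4% of all genes), and one of more than 4-fold for 0 of them, against 7.82% of all genes. The median log2 fold change, pool A over pool B, was -0.03, beside 0.02 over all genes tested, and ran from -1.59 for Ranbp10 to 1.51 for Kpnb1. Scaling by total counts alone moved the median of all genes by -0.14 and upper-quartile factors moved it by 0.10, so small fold changes depend on the scaling. The count higher with pool A was 5 without pool A replicate 2, where Xpo1, Tnpo3 and Nup35 lost their calls. The test against a 1.5-fold change left 2 of the 52 members in favour of pool A and 4 in favour of pool B. Of all 11582 genes it left 1156 and 1521.

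**Figure D1:**
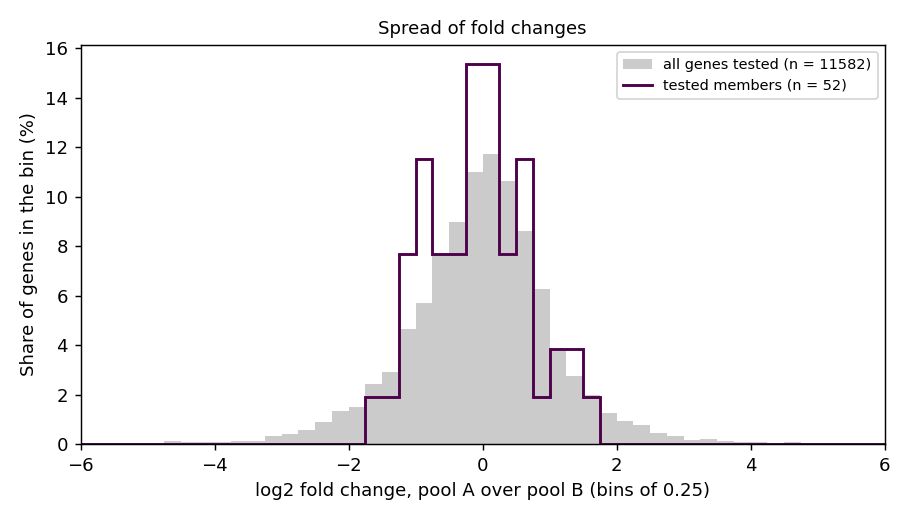
Distribution of log2 fold changes (x axis, pool A over pool B, in bins of 0.25) as a share of genes in percent (y axis), for all 11582 genes tested (grey fill) and the 52 tested nuclear pore and karyopherin genes (line). The members lie between -1.59 and 1.51, inside the range of all genes, whose tails extend further on both sides.

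**Figure D2:**
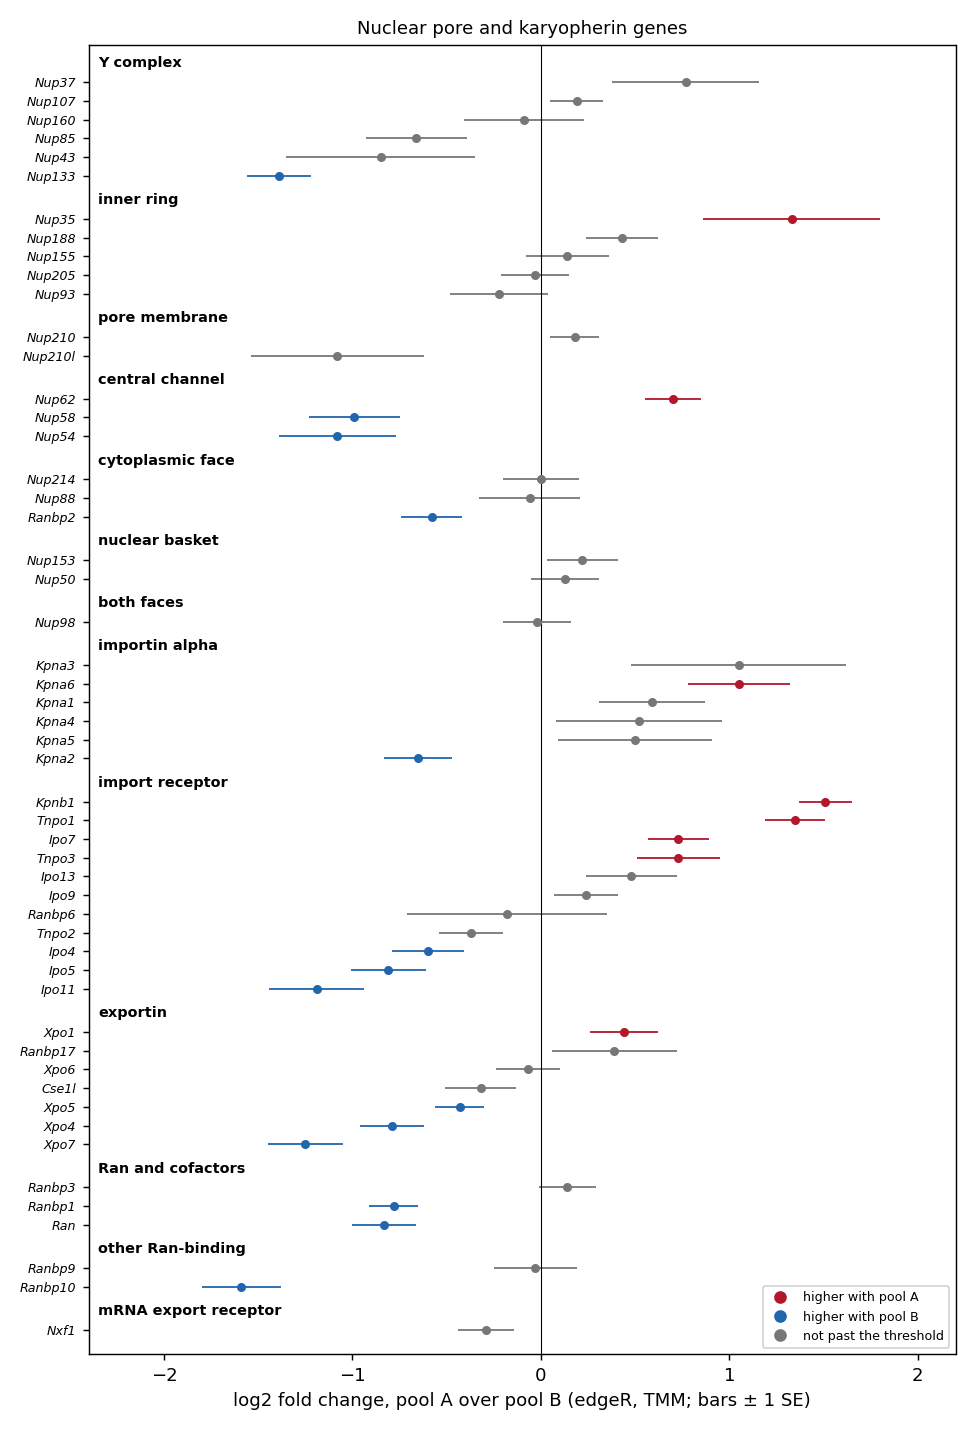
Log2 fold change of each of the 52 tested genes (x axis, pool A over pool B, points with bars of ± 1 SE), grouped by role. Red points passed the threshold higher with pool A (8 genes), blue points higher with pool B (14 genes), and grey points did not pass (30 genes); most roles hold points on both sides of 0.

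The nucleoporin genes, counted with Ranbp2, which encodes the largest protein of the cytoplasmic filaments, were largely not past the threshold. Of 22 tested, 2 were higher with pool A, 4 were higher with pool B and 16 did not pass. Their share of 27.3% stands beside 40.6% of all genes, and the difference between those shares was not tested. In the Y complex, 1 of 6 tested subunits passed (16.7%, beside 40.6% of all genes), Nup133. It had 38.0, 43.1 and 46.1 CPM with pool A and 121, 127 and 120.3 CPM with pool B. The pools did not overlap, and the log2 fold change was -1.39 ± 0.17 (SE), 2.62-fold higher with pool B, with an edgeR adjusted p of 1.93e-07. Nup107, the subunit that joins Nup133 to the rest of the complex, had 170.4, 174 and 164 CPM with pool A and 169, 150.0 and 176 CPM with pool B. These ranges overlapped, and its log2 fold change was 0.19 ± 0.14 (SE), at an adjusted p of 0.33. Nup160, Nup37 and Nup43 had log2 fold changes of -0.09, 0.77 and -0.85 and did not pass. Nup43 had 3.53 and 4.08 CPM in pool A replicates 1 and 3 but 13.4 CPM in replicate 2. Without pool A replicate 2 its log2 fold change was -1.72 with an adjusted p of 0.0194 (0.0194 to 0.504 over its alternatives). Nup43 also passed with limma on all 6 libraries, at a log2 fold change of -1.24 and an adjusted p of 0.0383. Nup85 lay just outside the threshold at a log2 fold change of -0.66 (adjusted p 0.0522). It passed under 7 of the alternatives, with values from 0.0144 to 0.299 over all of them. Summed over these 6 genes, CPM was 269.9, 305 and 271 with pool A and 383, 385 and 382 with pool B. Without Nup107, which took the most counts of the 6, the sums were 99.6 to 130.1 CPM with pool A and 207 to 235 CPM with pool B, again apart. Without Nup133, left out because it was the gene called, they were 225 to 261 and 258 to 262 CPM, and the pools overlapped. All of these sums leave out Sec13, a subunit outside the naming pattern that was 5.07-fold higher with pool B. They therefore do not describe the whole complex.

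Of the 5 inner ring genes, 1 passed (20.0%, beside 40.6% of all genes): Nup35, a membrane-binding subunit with few counts. Nup35 had 16.3, 13.1 and 12.2 CPM with pool A and 8.86, 2.74 and 6.05 CPM with pool B. The pools did not overlap, and its log2 fold change was 1.33 ± 0.47 (SE), at an edgeR adjusted p of 0.0233. The call was lost on leaving out pool A replicate 1 or 2, or pool B replicate 2 or 3, (adjusted p 0.103, 0.0515, 0.0877 and 0.0535, within a range of 0.0114 to 0.103). The large scaffold subunits Nup93, Nup155, Nup188 and Nup205 had log2 fold changes of -0.22, 0.14, 0.43 and -0.03. Nup188 had an adjusted p of 0.0735 and passed under 4 alternatives, among them without pool B replicate 2 (log2 fold change 0.65, adjusted p 0.0114, range 0.0114 to 0.27). The ring as a whole had between 234 and 259 CPM with pool A and between 242 and 250.2 CPM with pool B.

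Nup210, a protein that spans the pore membrane, took the most counts of all 55 rows on average over the 6 libraries, although Kpnb1 took more in each pool A library. It had 348, 339 and 346 CPM with pool A and 295, 383 and 333 CPM with pool B, overlapping ranges. Its log2 fold change was 0.18 ± 0.13 (SE), at an adjusted p of 0.299. Its relative Nup210l averaged 5.9 ± 1.25 CPM in pool A libraries and 13.8 ± 0.966 CPM in pool B libraries (SD, n = 3 each). Those ranges did not overlap, yet the log2 fold change of -1.08 ± 0.46 (SE) did not pass (adjusted p 0.0605, and 0.0205 to 0.169 over its alternatives, of which 3 passed).

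The 3 genes of the central channel all passed, in different directions, beside 40.6% of all genes called. Nup54, Nup58 and Nup62 encode proteins with phenylalanine-glycine repeats that bind each other in a single subcomplex. Nup62 had 137, 159 and 163 CPM with pool A and 91.0, 116 and 106 CPM with pool B. All of its pool A libraries lay above all pool B libraries, with a log2 fold change of 0.70 ± 0.15 (SE) at an edgeR adjusted p of 0.000546. Nup58 went the other way, with 17.9, 25.3 and 24.8 CPM with pool A and 45.7, 52.6 and 51.1 CPM with pool B. On the log2 scale the difference was -0.99 ± 0.24 (SE), at an adjusted p of 0.00137. Nup54 had 13.6, 11.9 and 11.3 CPM with pool A and 22.8, 29.0 and 34.4 CPM with pool B, again without overlap. Its log2 fold change was -1.08 ± 0.31 (SE), at an adjusted p of 0.00673, and 0.0536 without pool B replicate 3 (range 0.00251 to 0.0536). In the RefSeq annotation of the GRCr8 assembly, Nup62 overlaps Atf5 on the opposite strand and Il4i1 on the same strand. Neither moved with it past the threshold, with log2 fold changes of -0.34 for Atf5 and 0.15 for Il4i1 (adjusted p 0.0906 and 0.773). Nup37 of the Y complex, which did not pass, overlaps Parpbp on the opposite strand, and Parpbp was higher with pool A, with a log2 fold change of 0.68 (adjusted p 0.024) beside 0.77 for Nup37. The part of Parpbp reads in the counts of Nup37 was not tested.

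On the cytoplasmic face, Ranbp2, which binds Ran and carries SUMO ligase activity, was higher with pool B. It had 88.2, 102 and 96.9 CPM with pool A and 164, 128 and 180.1 CPM with pool B, with no overlap. Its log2 fold change was -0.58 ± 0.16 (SE), at an edgeR adjusted p of 0.00541, and 0.0543 without pool B replicate 3 (range 0.000971 to 0.0543). Nup88 and the main row of Nup214, which bind each other there, had log2 fold changes of -0.06 ± 0.27 and 0.00 ± 0.20 (SE). The second row named Nup214 (ENSRNOG00000047244) had 2, 8 and 10 counts with pool A and 0 in each pool B library, and it did not pass the filter. How reads were shared between the rows of this name is not stated. Nup50 and Nup153 of the nuclear basket and Nup98, found on both faces, had log2 fold changes of 0.13, 0.22 and -0.02 and did not pass.

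Importin alpha proteins recognise the classical nuclear localisation signal and hand the cargo to importin beta. Of the 7 genes, Kpna7 was at 0 counts in every library, and of the 6 tested, 1 was higher with pool A, 1 was higher with pool B and 4 did not pass, a share called of 33.3% beside 40.6% of all genes. Kpna6 had 44.0, 38.0 and 44.5 CPM with pool A and 33.4, 15.9 and 17.0 CPM with pool B. The lowest pool A library lay above the highest pool B library, and the log2 fold change was 1.05 ± 0.27 (SE), at an edgeR adjusted p of 0.00267. Kpna2, a member that many proliferating cells express strongly, had 42.1, 52.6 and 62.7 CPM with pool A and 86.2, 99.7 and 85.9 CPM with pool B. Its ranges did not overlap either, and its log2 fold change was -0.65 ± 0.18 (SE), at an adjusted p of 0.00603. Kpna1, Kpna3, Kpna4 and Kpna5 had log2 fold changes of 0.59, 1.05, 0.52 and 0.50, with overlapping ranges and adjusted p-values between 0.098 and 0.378. Kpna3 passed without pool B replicate 1 (log2 fold change 2.03, adjusted p 0.0192, range 0.0192 to 0.665), and Kpna1 passed without pool B replicate 2 and with upper-quartile factors (adjusted p 0.0452 and 0.0497, range 0.0452 to 0.357). The summed level of the family did not separate the pools, at 147 to 182 CPM with pool A and 142 to 180.3 CPM with pool B. Without Kpna2, which took the most counts of the family but is also its 1 gene called higher with pool B, so that leaving it out moves the rest towards pool A by construction, the sums were 105, 112 and 119 CPM with pool A and 94.1, 65.7 and 56.0 CPM with pool B, without overlap.

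**Figure D3:**
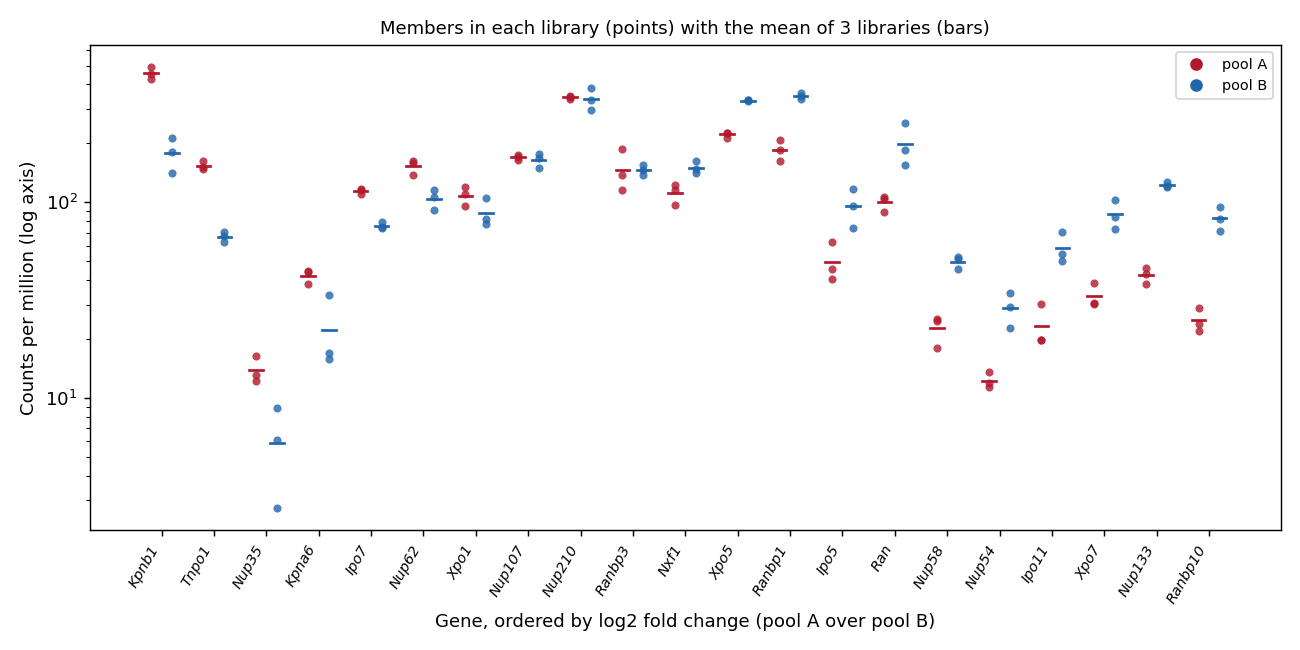
Level in each library (y axis, CPM on a log axis) of the 21 genes whose values are given by library under the naming rule, ordered by log2 fold change. Each point is a library and each bar the mean of 3 libraries, red for pool A and blue for pool B; Kpnb1 at the left is higher in every pool A library, Ranbp10 at the right in every pool B library, and Xpo1, Nup107, Nup210 and Ranbp3 in the middle overlap.

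Among the import receptors, 7 of 11 passed (63.6%, beside 40.6% of all genes), with 4 favouring pool A (36.4%, beside 18.6%) and 3 favouring pool B (27.3%, beside 22.0%). Whether these shares differ from those of all genes was not tested here or for the other roles. Kpnb1, importin beta, leaned furthest towards pool A of all 52 genes. It had 454, 426 and 493 CPM with pool A and 142, 214 and 180.5 CPM with pool B. Every pool A library lay far above every pool B library, and the log2 fold change was 1.51 ± 0.14 (SE), 2.84-fold higher, with an edgeR adjusted p of 1.73e-09. Tnpo1, the receptor for proline-tyrosine signals, had 163, 147 and 151 CPM with pool A and 67.5, 70.1 and 62.4 CPM with pool B. On the log2 scale the difference was 1.35 ± 0.16 (SE), 2.56-fold higher with pool A, with an adjusted p of 5.85e-08. Its closest relative in the list, Tnpo2, did not go with it. Tnpo2 had 65.7, 55.8 and 68.4 CPM with pool A and 101, 87.6 and 82.5 CPM with pool B, which is -0.37 ± 0.17 (SE) as a log2 fold change. Tnpo2 did not pass (adjusted p 0.094), except with total counts alone (0.0289, range 0.0289 to 0.285).

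Tnpo3, which imports splicing factors rich in serine and arginine, and Ipo7, an importin of ribosomal proteins, were higher with pool A too. Ipo7 had 109.9, 117 and 116 CPM with pool A and 73.6, 75.0 and 79.4 CPM with pool B, a narrow spread on both sides. Its log2 fold change was 0.73 ± 0.16 (SE), at an edgeR adjusted p of 0.000552. Tnpo3 averaged 71.6 ± 14.0 CPM in pool A libraries and 48.3 ± 14.3 CPM in pool B libraries (SD, n = 3 each), and its ranges overlapped. Its log2 fold change of 0.73 ± 0.22 (SE) passed with an adjusted p of 0.00861, but not without pool A replicate 2 or pool B replicate 1 (0.0813 and 0.0676, range 0.00221 to 0.0813).

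Ipo11, Ipo5 and Ipo4 were higher with pool B. Ipo11 had 19.8, 30.1 and 19.8 CPM with pool A and 50.1, 54.2 and 70.4 CPM with pool B. The groups lay well apart, with a log2 fold change of -1.19 ± 0.25 (SE), 2.28-fold higher with pool B, and an edgeR adjusted p of 0.000319. Ipo5, which like Ipo7 imports ribosomal proteins, had 45.6, 40.7 and 62.4 CPM with pool A and 117, 73.9 and 95.7 CPM with pool B. On the log2 scale the difference was -0.81 ± 0.20 (SE), opposite in sign to that of Ipo7, with an adjusted p of 0.00146. Ipo4, a receptor for histones, had a log2 fold change of -0.60 ± 0.19 (SE) at an adjusted p of 0.0113, which became 0.0976 on leaving out pool A replicate 2 and 0.062 on leaving out pool B replicate 3 (range 0.00339 to 0.0976). Ipo9, Ipo13 and Ranbp6, the last a relative of Ipo5, had log2 fold changes of 0.24, 0.48 and -0.18 and did not pass. Summed over the 11 genes, the receptors had 1110.2, 1089 and 1221 CPM with pool A and 808, 877 and 839 CPM with pool B. Without Kpnb1 the sums overlapped, at 656 to 727 CPM with pool A and 659 to 666 CPM with pool B, on the scale of total counts. The log2 ratio of those means was 0.04 with total counts, 0.18 with TMM factors and 0.28 with upper-quartile factors. Without Tnpo1 as well, left out because its fold change was next in size towards pool A, which by construction moves the rest towards pool B, pool B was above pool A, at 592 to 599 CPM against 493 to 577 CPM, a log2 ratio of the means of -0.17 that was -0.03 with TMM factors and turned to 0.07 with upper-quartile factors.

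Of the 7 exportin genes, 3 were higher with pool B (42.9%, beside 22.0% of all genes), 1 was higher with pool A (14.3%, beside 18.6%) and 3 did not pass. Xpo7, an exportin of broad cargo, had 30.4, 30.1 and 38.6 CPM with pool A and 72.9, 84.3 and 103 CPM with pool B. The pools were well apart, with a log2 fold change of -1.25 ± 0.20 (SE), 2.38-fold higher with pool B, and an edgeR adjusted p of 1.1e-05. Its close relative Ranbp17 averaged 29.7 ± 8.43 CPM in pool A libraries and 24.4 ± 14.6 CPM in pool B libraries (SD, n = 3 each), overlapping ranges. Ranbp17 stood at 0.39 ± 0.33 (SE) in log2 fold change and passed without pool B replicate 1 alone, with 1.02 and an adjusted p of 0.0187 (range 0.0187 to 0.766). Xpo4, which exports the translation factor eIF5A, averaged 76.9 ± 15.1 CPM in pool A libraries and 147 ± 6.8 CPM in pool B libraries (SD, n = 3 each). Its log2 fold change was -0.79 ± 0.17 (SE), at an adjusted p of 0.000534. Xpo5, the exporter of microRNA precursors, had 227, 214 and 226 CPM with pool A and 333, 331 and 329.5 CPM with pool B. The difference was small but the libraries of each pool lay close together, and the log2 fold change of -0.43 ± 0.13 (SE) passed with an adjusted p of 0.00868.

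Xpo1, the main exportin for leucine-rich signals, had 109.9, 119 and 95.7 CPM with pool A and 82.1, 77.7 and 106 CPM with pool B. The third pool B library lay within the range of pool A. The log2 fold change of 0.44 ± 0.18 (SE) lay closest to the threshold among the calls, at an edgeR adjusted p of 0.0488, and 9 of the 14 alternatives that tested against no change lost it (range 0.0147 to 0.205). Cse1l, which returns importin alpha to the cytoplasm, and Xpo6, the actin exporter, had log2 fold changes of -0.32 ± 0.19 and -0.07 ± 0.17 (SE) and did not pass. The exportins together had 593, 629.6 and 584 CPM with pool A and 842, 832 and 859 CPM with pool B. The pools lay in the same order without Xpo5, at 357 to 416 CPM against 500.4 to 529 CPM, a sum that still holds the called Xpo4 and Xpo7. The log2 ratio of the means over all 7 was -0.49 with total counts, -0.34 with TMM factors and -0.24 with upper-quartile factors. Without Xpo5 the ratios were -0.43, -0.29 and -0.18.

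Ran and its cofactor Ranbp1, which helps to release Ran from karyopherins, were both higher with pool B. Ran had 89.5, 106 and 104 CPM with pool A and 155, 254 and 186 CPM with pool B. Its ranges did not overlap, although pool B replicate 2 was high, and the log2 fold change was -0.83 ± 0.17 (SE), at an edgeR adjusted p of 0.000192. Ranbp1 had 162, 185 and 207 CPM with pool A and 336, 350.4 and 361 CPM with pool B. On the log2 scale the difference was -0.78 ± 0.13 (SE), at an adjusted p of 2.86e-05. Ranbp3, a cofactor of Xpo1, had 138, 115 and 187 CPM with pool A and 146, 155 and 138 CPM with pool B. Its ranges overlapped fully, with a log2 fold change of 0.14 ± 0.15 (SE) at an adjusted p of 0.496.

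Ranbp10 leaned furthest towards pool B. It belongs with Ranbp9 to a pair of related scaffold proteins that bind Ran but are no transport receptors. Ranbp10 had 22.0, 23.7 and 28.9 CPM with pool A and 71.6, 94.2 and 82.5 CPM with pool B. No library of one pool came near those of the other, and the log2 fold change was -1.59 ± 0.21 (SE), 3.01-fold higher with pool B, with an edgeR adjusted p of 4.8e-07. Ranbp9 averaged 37.2 ± 3.82 CPM in pool A libraries and 42.3 ± 5.73 CPM in pool B libraries (SD, n = 3 each), a log2 fold change of -0.03 ± 0.22 (SE). Nxf1 had 96.9, 122 and 115 CPM with pool A and 141, 147 and 163 CPM with pool B. Its CPM ranges did not overlap, but the log2 fold change under TMM was -0.29 ± 0.15 (SE) with an adjusted p of 0.143. With total counts alone it was -0.43 and passed (0.0335, range 0.0335 to 0.411).

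Libraries of a pool varied about equally on both sides. The coefficient of variation over 3 libraries had a median of 14.4% with pool A and 13.8% with pool B over the 52 tested genes. It was lowest for Nup210 with pool A (1.41%) and for Xpo5 with pool B (0.474%), and highest for Nup43 with pool A (79.4%) and Kpna3 with pool B (82.9%). The mean count per library of the tested genes ran from 22.0 for Ranbp6 to 947 for Nup210. Of the 3 rows that were not tested, Kpna7 and Nup62cl had 0 counts in all libraries and the third was the second Nup214 row. In the GRCr8 annotation, 26 members overlap another gene, 10 of the 35 overlapping entries being protein coding. The strand setting used for counting is not stated, so reads of such pairs may not be separated.

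Other genes of nuclear transport that the naming pattern leaves out were described beside these. Of 44 names listed, 40 were in the table, on 42 rows, of which 38 were tested. Pool A was higher for 11 of these and pool B for 9, or 52.6% in all beside 40.6% of all genes. The median log2 fold change was 0.22. This lean towards pool A depended on the scaling. Under total counts alone, 8 favoured pool A and 9 pool B, at a median of 0.07, beside -0.12 over all genes. Under upper-quartile factors, 12 favoured pool A and 7 pool B, at a median of 0.32, beside 0.12 over all genes. Genes of messenger RNA export, 18 of the 38 tested, held 7 of the 11 (38.9% of the 18, beside 18.6% of all genes). Of the 18, 3 were higher with pool B (16.7%, beside 22.0%) and 8 did not pass, a share called of 55.6%. Chtop, 1 of the 7, had overlapping ranges and an edgeR adjusted p of 0.0111. It lost the call with total counts alone and without pool A replicate 1 or pool B replicate 3 (range 0.00288 to 0.0745). Ddx39b, the helicase that loads export factors onto messenger RNA, had 2471, 2564 and 2497 CPM with pool A and 363, 368 and 311 CPM with pool B. This was the largest difference on the list, with a log2 fold change of 3.0 ± 0.14 (SE), 8.01-fold higher with pool A, and an edgeR adjusted p of 1.48e-15. Its partners Thoc2 and Sarnp had log2 fold changes of 1.77 ± 0.16 and 1.67 ± 0.19 (SE), and Ddx19b, a helicase at the cytoplasmic face, had 1.63 ± 0.15 (SE). Eny2, a subunit of the export complex at the nuclear basket, was higher with pool B, at -1.11 ± 0.20 (SE).

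Of the pore components outside the naming pattern, 1 was higher with pool A, 3 were higher with pool B and 5 did not pass, a share called of 44.4%, near the 40.6% of all genes. Of the 3, Aaas and Pom121 (adjusted p 0.0278 and 0.033) each lost the call under 7 of 14 alternatives, including on leaving out any 1 pool A library or pool B replicate 3, where Sec13 was the 1 left. Tpr, the main filament of the nuclear basket, had 873, 886 and 931 CPM with pool A and 346, 343 and 347 CPM with pool B. On the log2 scale the difference was 1.52 ± 0.13 (SE), at an edgeR adjusted p of 1.22e-10, whereas Nup153, which anchors Tpr, had 0.22 ± 0.19 (SE). Sec13, a further subunit of the Y complex that also builds transport vesicles, had 26.0, 31.6 and 27.9 CPM with pool A and 143, 170.3 and 166 CPM with pool B. It was 5.07-fold higher with pool B, with a log2 fold change of -2.34 ± 0.18 (SE) at an adjusted p of 2.45e-11, in the same direction as Nup133.

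Among genes of the Ran cycle and its adaptors, 2 were higher with pool A, 3 were higher with pool B and 2 did not pass, which is 71.4% of 7 genes beside 40.6% of all genes. Nutf2, which returns Ran to the nucleus, and Phax, an adaptor for export of small nuclear RNA, were higher with pool B, with log2 fold changes of -1.81 ± 0.36 and -1.74 ± 0.27 (SE). Rangap1, which stimulates Ran to hydrolyse its GTP, and Rcc1, which recharges Ran with GTP, act on the 2 sides of the pore. These 2 genes are set side by side, and Rangap1 was picked out after its values were seen. Rangap1 had 1650.1, 1408 and 1579 CPM with pool A and 554, 612 and 618 CPM with pool B, which is 1.52 ± 0.13 (SE) as a log2 fold change. Rcc1 went with Ran and Ranbp1, at 23.3, 19.0 and 38.3 CPM with pool A and 48.4, 60.8 and 59.0 CPM with pool B, which is -0.92 ± 0.24 (SE) as a log2 fold change. For both genes the pools did not overlap, and the edgeR adjusted p was 2e-10 for Rangap1 and 0.00298 for Rcc1.

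**Figure D4:**
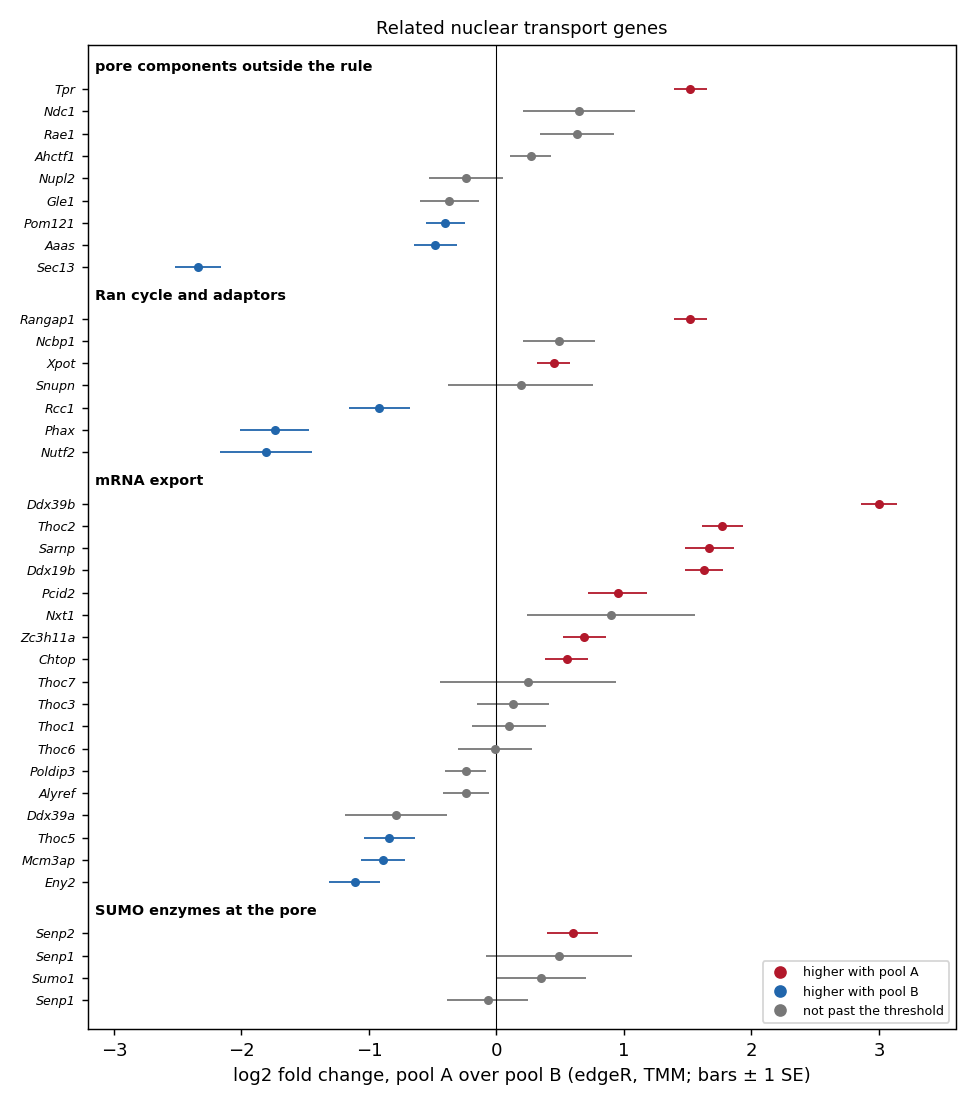
Log2 fold change of the 38 tested related transport genes (x axis, pool A over pool B, points with bars of ± 1 SE), grouped by role and coloured as passed higher with pool A (red, 11 genes), passed higher with pool B (blue, 9 genes) or not passed (grey, 18 genes). Ddx39b at 3.0 and Sec13 at -2.34 mark the ends.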

How the data were processed

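The authors deposited 1 table of counts per gene for the 6 libraries and, per the file headers, another column per pool that holds the authors' mean of the 3 counts and was not used. Reads were aligned with STAR and counted with featureCounts, per the submitters' processing notes; versions, genome build, annotation and strand setting are not given in the sources used here. Counts were tested with edgeR 4.0.16 in R 4.3.3: TMM scaling, edgeR's expression filter, quasi-likelihood test, pool as the only term, Benjamini-Hochberg adjustment over all 11582 genes tested, threshold 0.05. CPM use total counts. DESeq2 1.42.0 and limma 3.58.1 served as alternatives.

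The members, lists and rule for named genes were chosen with earlier results of these data known. By that rule, values per library are given for up to 8 members in each direction with the largest fold changes (past the threshold, mean of at least 10 counts, ranges apart), for 5 with the highest CPM, for 4 not past the threshold, and for Ran, Kpnb1 and Xpo1, and up to 5 related genes a direction are named. Other members are described by role, and Nup43, Ranbp2, Kpna2 and Tnpo2 were given by library after their values were seen. Aaas, Pom121 and Chtop were named outside that rule because alternatives lost their calls. Same-numbered libraries did not deviate together (r 0.0409, -0.0195 and 0.02), so numbers were not taken as pairs. Gene lengths were not used, so levels are compared within genes. One related gene was taken off its list after the analysis and is not reported here. Protein features planned for the members were not analysed here. Intervals, floors and errors cover counting error and these libraries only.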

Additional observations from a re-analysis of the deposited data

How the results depend on the processing

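The test against a 1.5-fold change, by its construction a stricter test, left 2 and 4 of the 52 members higher with pool A and pool B. It left 6 and 5 of the 38 related genes, and 1156 and 1521 of all 11582 genes. Total counts alone moved the median of the members from -0.03 to -0.17, as it moved that of all genes. When a library was left out, members higher with pool A numbered 5 to 8, the fewest without pool A replicate 2, members higher with pool B 11 to 15, and the median ran from -0.05 to 0.07. Over all genes the counts in these fits were 1856 to 2048 and 2194 to 2390, beside 2154 and 2546 with all libraries. Under the other scalings, filters and tests the counts of members kept within 1.5 times 8 and 14. With the replicate block, 7 members favoured pool A and 15 pool B (Xpo1 lost its call and Nup85 gained one) and 11 and 9 related genes did so, but the numbers do not pair the libraries. Of the 22 called members, 16 passed under all alternatives that tested against no change, and of the 30 others 21 passed under none of them. The matching shares over all genes were not taken, so whether members held their calls more or less often than other genes was not tested.

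Members near 0 changed sign, none of them past the threshold on either side. With upper-quartile factors Nup160 had 0.01, Nup98 0.08, Nup88 0.05, Xpo6 0.03, Nup205 0.07 and Ranbp9 0.07. With total counts alone Nup214 had -0.13 and Nup50 -0.01. Over the 6 fits without a library, Nup160 ran from -0.38 to 0.17, Nup98 from -0.09 to 0.06, Nup88 from -0.26 to 0.09, Nup214 from -0.13 to 0.14, Nup93 from -0.48 to 0.04, Nup205 from -0.12 to 0.09, Ranbp6 from -0.41 to 0.42, Ranbp9 from -0.10 to 0.06 and Xpo6 from -0.13 to 0.03. Their causes were not tested. Ranbp6 had the lowest mean count of the tested members, at 22.0.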
